A study of Penicillium oxalicum with 9 samples.

Results

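Xylan-degrading genes were followed in 3 deletion strains of the filamentous fungus Penicillium oxalicum, a secretor of plant cell wall hydrolases. The set held every gene whose deposited description contained, ignoring case, xylan, xylosidase, arabinofuranosidase, feruloyl or glucuronidase, with the xyloglucan-specific endoglucanases PDE_02886 and PDE_06439 left out. This gave 45 of the 9786 genes in the table. Of the 9786, 9397 were described only as hypothetical protein, so any xylan-acting genes among those are outside the set. Of the 45, 44 were described as putative enzymes and the other was the transcriptional activator XlnR (PDE_07674), caught by the word xylanolytic in its description. All 45 are called xylan-degrading genes here for short, XlnR included. Several carry a description, KEGG entry or GO function that points to another substrate, as given with their classes. The count test covered 43 of the 45, since the endoxylanase PDE_00014 and the beta-xylosidase PDE_02413 had too few reads.

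The strains carried deletions of PoflbC (dPoflbC), of PoClrC (dPoClrC) and of a locus that the labels call CA without explaining it (dCA), with 3 biological replicates each. All 9 cultures had the same history, 22 h in 2% glucose, 2 h in medium without carbon and 4 h in 2% cellulose, shaken at 30 °C and 200 rpm. The samples include no strain without a deletion, so a difference cannot be assigned to either strain of a comparison. The annotation names no flbC or clrC gene, and the deletions were not checked by name.

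Xylan is a main hemicellulose of plant cell walls, a backbone of beta-linked xylose units that carries arabinose, glucuronic acid and acetyl groups, with ferulic acid attached to some of the arabinose. Endoxylanases cleave inside the backbone and beta-xylosidases release xylose from the ends of the fragments, while arabinofuranosidases, alpha-glucuronidases, acetyl xylan esterases and feruloyl esterases remove the side groups. In filamentous ascomycetes many of these genes are controlled by XlnR, a zinc-cluster activator.

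Levels are RPKM as deposited, that is reads per kilobase of gene length and per 1e+06 reads in genes. Overlap or order of strains is read from these values unless scaling is named, and it can differ after scaling. Libraries held 6.49 to 7.76 M reads in genes. Fold changes come from edgeR's quasi-likelihood test on the read counts after TMM scaling, with Benjamini-Hochberg adjustment over the 8681 genes tested, and a gene is said to rise or fall only at an adjusted p under 0.05 and a log2 fold change of at least 1 in size. The TMM factors were above 1 in dPoflbC (1.197 to 1.24), near 1 in dPoClrC (0.988 to 1.03) and below 1 in dCA (0.680 in replicate 2, 0.869 and 0.906 in the others), so a log2 fold change against dCA is lower than the ratio of the RPKM values. The dCA replicate 2 library stood apart from the others of its strain. In bulk RNA, fewer cells expressing a gene and less RNA per cell cannot be told apart.

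The xylan-degrading genes took a far smaller part of the transcripts in dPoflbC than in the other strains. Their summed percent of the reads in genes was 0.436%, 0.527% and 0.445% in dPoflbC libraries, 2.02%, 3.81% and 4.09% in dPoClrC libraries and 3.51%, 3.16% and 3.86% in dCA libraries. The dPoflbC values lay well below all 6 others, and the lowest dPoClrC value, that of replicate 1, lay below all dCA values. The endoxylanase PDE_04478 alone held 1.11% to 1.55% of the reads of the set in dPoflbC libraries. It held 29.7% to 41.4% in dPoClrC libraries and 29.7% to 38.4% in dCA libraries. Without it the summed percent was 0.429% to 0.522% in dPoflbC, 1.42% to 2.40% in dPoClrC and 2.16% to 2.58% in dCA. The dPoflbC values were again the lowest. Endoxylanases made up the largest part in every library, and their percent of the reads of the set was 42.8%, 47.4% and 43.4% in dPoflbC libraries, 53.2%, 56.1% and 58.3% in dPoClrC libraries and 65.2%, 68.9% and 66.0% in dCA libraries. The number of the 45 genes at 100 RPKM or more was 7 to 8 in dPoflbC libraries, 18 to 21 in dPoClrC libraries and 19 to 22 in dCA libraries.

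**Figure D1:**
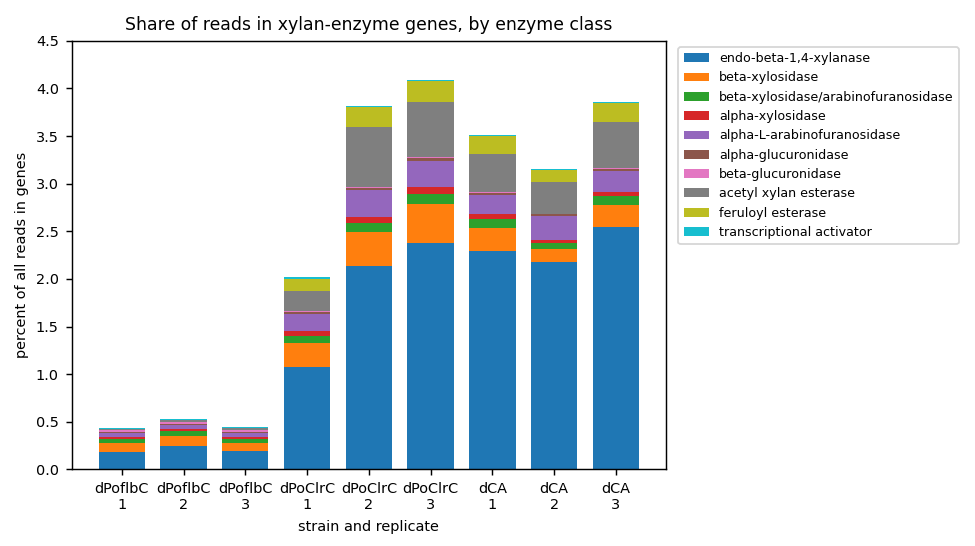
Percent of all reads in genes that fell in the 45 xylan-degrading genes, stacked by enzyme class, with 1 bar per library (strain and replicate on the horizontal axis). The 3 dPoflbC bars reach 0.436% to 0.527%, against 2.02% to 4.09% in dPoClrC and 3.16% to 3.86% in dCA.

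Against dCA, 30 of the 43 tested genes fell in dPoflbC and 2 rose, while 15.8% of all tested genes fell and 11.4% rose. The median log2 fold change of the 43 was -1.76, beside -0.07 over all tested genes. Without XlnR, 29 of the 42 tested enzymes fell and 2 rose, with a median of -1.83. In dPoClrC against dCA 7 of the 43 fell and 2 rose, where 7.35% of all tested genes fell and 5.69% rose, and the median was -0.07 beside 0.00. With no scaling beyond library size that balance turned, with 4 that fell and 7 that rose and a median of 0.22, while 454 of all tested genes fell and 887 rose. In dPoflbC against dPoClrC 33 fell and 2 rose, where 13.6% of all tested genes fell and 9.05% rose, and the median was -1.82 beside 0.01. Counted in either direction, 27.1%, 13.0% and 22.6% of all tested genes were called in the 3 comparisons in this order. Each pair of comparisons shares the libraries of 1 strain. PDE_00276, 1 of the 2 that rose in both comparisons with dPoflbC, had enough reads for the test only through dPoflbC. PDE_07137, 1 of the 33 that fell in dPoflbC against dPoClrC, had enough only through dPoClrC. Without dCA replicate 2, the count in dPoClrC against dCA was 5 genes (4 fell and 1 rose) in place of 9. Of all tested genes 923 were called in that fit (507 fell and 416 rose), in place of 1132.

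**Figure D2:**
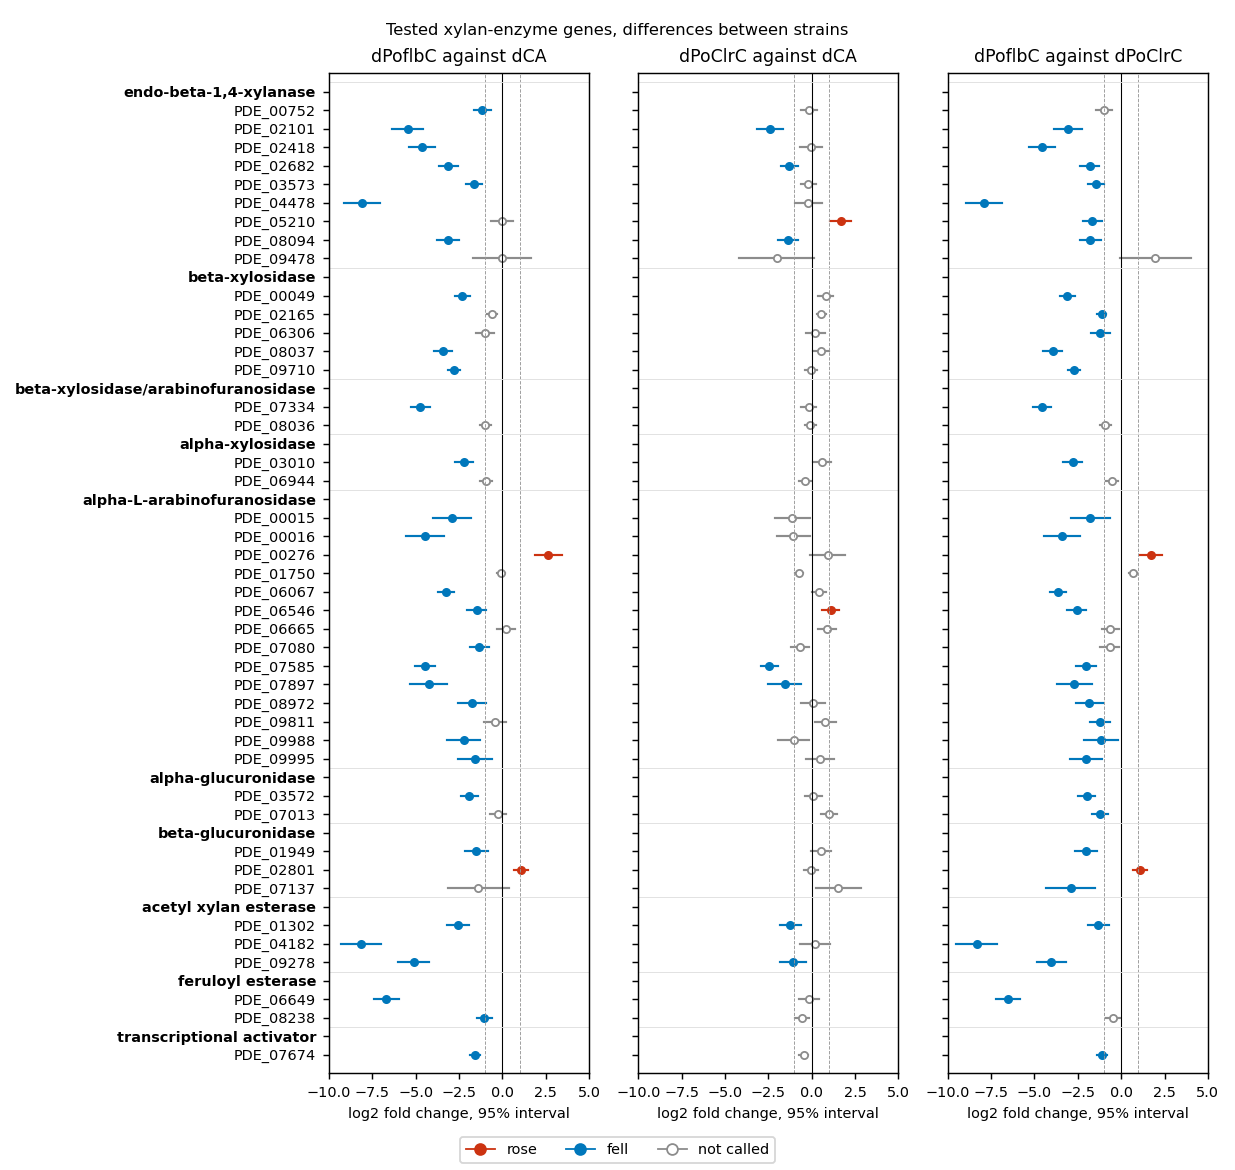
Log2 fold change of each of the 43 tested genes (horizontal axis, with its 95% interval) in dPoflbC against dCA, dPoClrC against dCA and dPoflbC against dPoClrC, grouped by enzyme class. Filled blue points fell, filled red points rose and open grey points were not called, and dashed lines mark a log2 fold change of 1 in either direction. Most points lie left of 0 in the outer panels, down to -8.33 for the acetyl xylan esterase PDE_04182 in dPoflbC against dPoClrC.

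Of the 10 endoxylanases, 9 were tested. In dPoflbC, 7 of the 9 fell against dCA and 7 of the 9 against dPoClrC, and in dPoClrC 3 fell and 1 rose against dCA. The set was led by PDE_04478, the most abundant endoxylanase transcript on cellulose outside dPoflbC. It stood at 106, 92.4 and 106 RPKM in dPoflbC libraries, 9405, 24041 and 26560.5 RPKM in dPoClrC libraries and 21230.3, 14744 and 20052 RPKM in dCA libraries. By mean RPKM it ranked 2 of 9786 genes in dPoClrC, 3 in dCA and 1828 in dPoflbC. The dPoflbC values lay far below all others, while those of dPoClrC and dCA overlapped. PDE_04478 fell in dPoflbC against dCA (log2 fold change -8.10, SE 0.46, adjusted p = 4.44e-07, a 184-fold lower mean RPKM) and against dPoClrC (log2 fold change -7.91, SE 0.46, adjusted p = 6.21e-07, 197-fold lower mean RPKM). In dPoClrC against dCA the log2 fold change was -0.19 (95% interval -0.94 to 0.56).

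PDE_08094 was the most abundant endoxylanase in dPoflbC. It stood at 897, 1315 and 1012 RPKM in dPoflbC libraries, 2589.9, 3184 and 3339 RPKM in dPoClrC libraries and 4837, 6759 and 7034 RPKM in dCA libraries. The 3 strains did not overlap, with dPoflbC lowest and dCA highest. PDE_08094 fell in dPoflbC against dCA (log2 fold change -3.15, SE 0.28, adjusted p = 7.87e-06), in dPoClrC against dCA (log2 fold change -1.37, SE 0.26, adjusted p = 0.00325) and in dPoflbC against dPoClrC (log2 fold change -1.78, SE 0.27, adjusted p = 3e-04). The balance of these endoxylanases can be read within a library, where no scaling enters. PDE_04478 over PDE_08094 was 0.118, 0.0703 and 0.104 in dPoflbC libraries, 3.63, 7.55 and 7.95 in dPoClrC libraries and 4.39, 2.18 and 2.85 in dCA libraries as a ratio of RPKM. PDE_04478 was the lower of the pair in every dPoflbC library and the higher in the 6 others.

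PDE_02101 had a like order of strains. It stood at 88.8, 91.9 and 81.6 RPKM in dPoflbC libraries, 322, 666 and 806 RPKM in dPoClrC libraries and 2015, 2939 and 2548 RPKM in dCA libraries. Again no strain overlapped another. The log2 fold changes of PDE_02101 were -5.46 in dPoflbC against dCA, -2.41 in dPoClrC against dCA and -3.06 in dPoflbC against dPoClrC, with adjusted p of 2.06e-06, 0.000739 and 5.83e-05 in that order, and it fell in each. PDE_02682 was lower in level, at 19.7, 19.1 and 22.5 RPKM in dPoflbC libraries, 40.6, 69.4 and 68.3 RPKM in dPoClrC libraries and 108, 123 and 116 RPKM in dCA libraries. It too fell in each comparison, with log2 fold changes of -3.11, -1.29 and -1.82 in the same order. Its call in dPoClrC against dCA was lost with no scaling beyond library size (log2 fold change -0.96).

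PDE_02418 fell in both comparisons with dPoflbC. It stood at 19.1, 19.6 and 17.6 RPKM in dPoflbC libraries, 258, 339.8 and 509 RPKM in dPoClrC libraries and 224, 361 and 303 RPKM in dCA libraries. The dPoClrC and dCA values overlapped and lay above 200 RPKM, all far above dPoflbC. Its log2 fold change was -4.61 in dPoflbC against dCA and -4.58 in dPoflbC against dPoClrC, and -0.03 (95% interval -0.67 to 0.61) in dPoClrC against dCA. PDE_03573 had a shallower difference, at 277, 336 and 218 RPKM in dPoflbC libraries, 513, 565 and 778 RPKM in dPoClrC libraries and 630.4, 441 and 664 RPKM in dCA libraries. PDE_03573 fell in dPoflbC against dCA (log2 fold change -1.63) and against dPoClrC (-1.44), and its values in dPoClrC and dCA overlapped. PDE_03573 has no KEGG entry, and its GO function is glucosylceramidase activity, so its place among endoxylanases rests on the description alone.

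PDE_00752 stood at 149, 188 and 167 RPKM in dPoflbC libraries, 188, 310.4 and 328 RPKM in dPoClrC libraries and 310.0, 174 and 273 RPKM in dCA libraries. Its dPoflbC values overlapped those of dCA as deposited, and it fell in dPoflbC against dCA after scaling (log2 fold change -1.14, SE 0.22, adjusted p = 0.0011), a call lost with upper-quartile scaling (-0.92) and with no scaling (-0.58). Against dPoClrC its log2 fold change of -0.99 was under the threshold, and it passed without dPoflbC replicate 2 (-1.08) or 3 (-1.004) or dPoClrC replicate 1 (-1.22). PDE_05210 went the other way in dPoClrC. It stood at 5.58, 4.30 and 5.58 RPKM in dPoflbC libraries, 11.5, 16.0 and 13.1 RPKM in dPoClrC libraries and 4.90, 1.84 and 3.85 RPKM in dCA libraries. The dPoClrC values lay above all others, and PDE_05210 rose in dPoClrC against dCA (log2 fold change 1.66, SE 0.26, adjusted p = 0.0012) and fell in dPoflbC against dPoClrC (log2 fold change -1.67, SE 0.25, adjusted p = 0.00027), with a log2 fold change of -0.01 (95% interval -0.65 to 0.63) in dPoflbC against dCA. The tested endoxylanase left, PDE_09478, was below 10 RPKM in every library and was called in no comparison, with 7.02 RPKM in dCA replicate 2 against 1.33 and 0.772 RPKM in dCA replicates 1 and 3. Its values were 6.49, 5.40 and 2.25 RPKM in dPoflbC libraries and 0.214, 1.44 and 1.25 RPKM in dPoClrC libraries. Without dCA replicate 2 it was called as higher in dPoflbC in both comparisons with that strain. Against dPoClrC it was also called as higher in dPoflbC by DESeq2, with no scaling and in a fit of the 6 libraries compared. The same held for limma on log2(RPKM + 1) or log2(RPKM + 0.5).

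**Figure D3:**
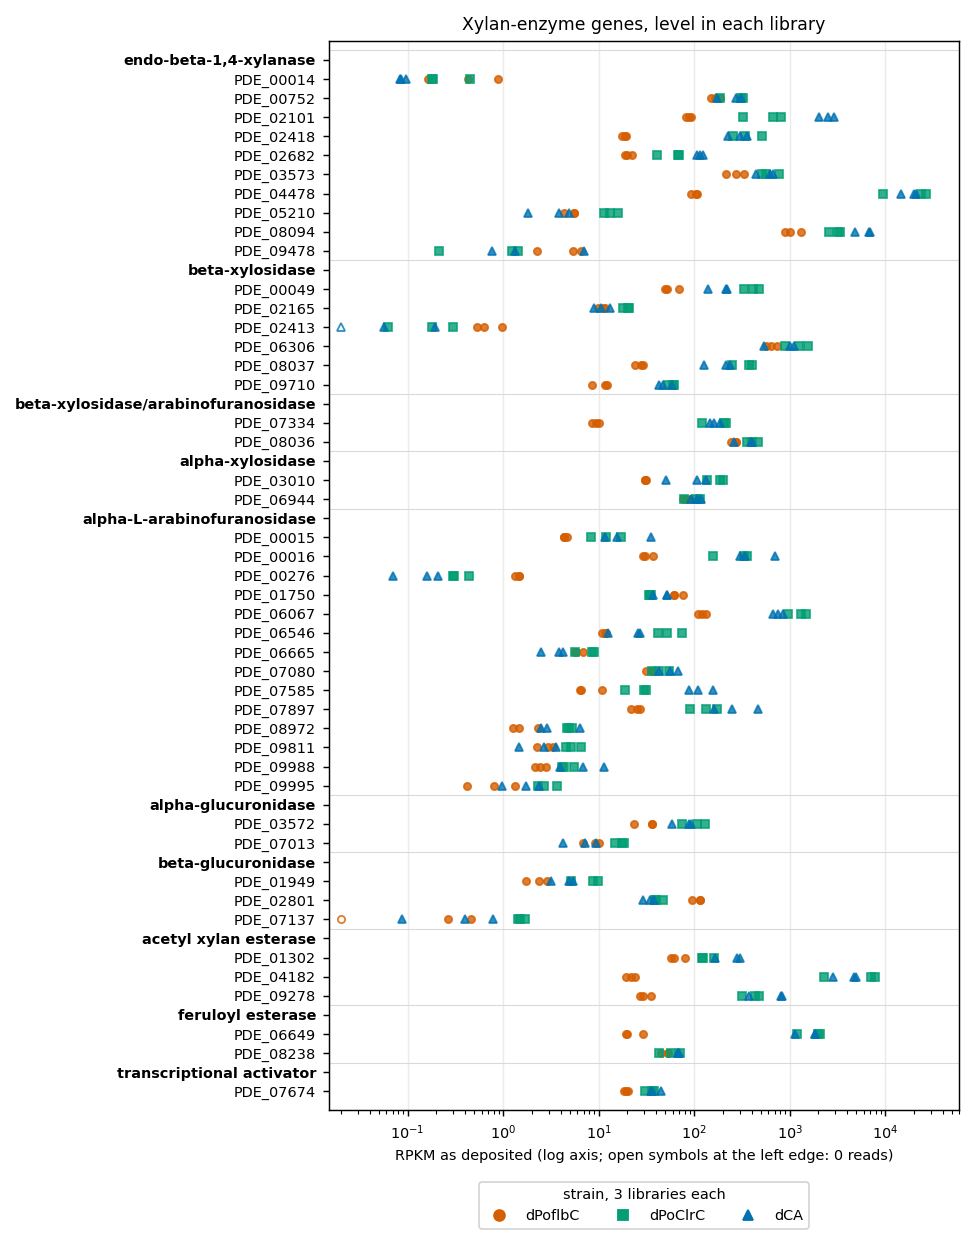
RPKM as deposited (log axis) of the 45 genes, with 1 point per library, grouped by enzyme class. Orange circles are dPoflbC, green squares dPoClrC and blue triangles dCA, and open symbols at the left edge mark 0 reads. The dPoflbC points of PDE_04478, PDE_04182 and PDE_06649 stand apart to the left of the 6 other libraries.

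Beta-xylosidases, which release xylose from the ends of xylan fragments, numbered 6, of which 5 were tested. In dPoflbC 3 fell against dCA and 5 against dPoClrC, and none of the 5 was called in dPoClrC against dCA by edgeR after TMM scaling or by DESeq2. In that comparison edgeR's unadjusted p was under 0.05 for PDE_00049, PDE_02165 and PDE_08037, and the adjusted p was under 0.05 for the first 2 of these, with log2 fold changes under the threshold. PDE_06306 was the most abundant. It stood at 639.6, 738 and 569 RPKM in dPoflbC libraries, 887, 1253 and 1571 RPKM in dPoClrC libraries and 1114, 539 and 1011 RPKM in dCA libraries. The dPoflbC values lay below all dPoClrC values and overlapped those of dCA, where replicate 2 was lowest. PDE_06306 fell in dPoflbC against dPoClrC (log2 fold change -1.21, SE 0.24, adjusted p = 0.0018), a call lost with no scaling (-0.93). Against dCA its log2 fold change of -0.9997 missed the threshold. It passed without dCA replicate 2 (-1.15), without dPoflbC replicate 2 (-1.10) and, at -1.001, without dPoClrC replicate 1 or replicate 3.

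PDE_08037 and PDE_00049 share a KEGG entry for beta-D-xylosidase. PDE_08037 stood at 23.9, 27.8 and 29.0 RPKM in dPoflbC libraries, 252, 373 and 406 RPKM in dPoClrC libraries and 241, 127 and 214 RPKM in dCA libraries, with dPoflbC far below the others and dPoClrC above dCA in every library. PDE_08037 fell in dPoflbC against dCA (log2 fold change -3.40, SE 0.23, adjusted p = 1.26e-06) and against dPoClrC (log2 fold change -3.95, SE 0.24, adjusted p = 7.49e-07). PDE_00049 stood at 52.3, 70.1 and 50.1 RPKM in dPoflbC libraries, 331, 417 and 475 RPKM in dPoClrC libraries and 220.4, 139 and 217 RPKM in dCA libraries. Its strains did not overlap, with dPoClrC highest. PDE_00049 fell in dPoflbC against dCA (-2.30) and against dPoClrC (-3.11), and its log2 fold change in dPoClrC against dCA was 0.80 (95% interval 0.39 to 1.22), past the threshold and called as higher at 1.09 with no scaling. Of the lower members, PDE_09710 had means of 10.8 ± 2.06 RPKM in dPoflbC, 59.0 ± 4.54 RPKM in dPoClrC and 49.7 ± 8.37 RPKM in dCA (SD, n = 3 each) and fell in both comparisons with dPoflbC. PDE_02165 had means of 10.9 ± 0.916 RPKM in dPoflbC, 19.6 ± 1.51 RPKM in dPoClrC and 10.9 ± 2.08 RPKM in dCA (SD, n = 3 each) and fell in dPoflbC against dPoClrC (log2 fold change -1.13), a call lost with upper-quartile scaling and with no scaling. PDE_09710 and the untested PDE_02413 carry a KEGG entry for beta-glucosidase.

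Both genes described as beta-xylosidase and arabinofuranosidase were tested, and 1 of 2 fell in each comparison with dPoflbC. PDE_07334 stood at 8.57, 9.29 and 10.046 RPKM in dPoflbC libraries, 120.4, 204 and 216 RPKM in dPoClrC libraries and 185, 145 and 163 RPKM in dCA libraries. The dPoflbC values were far below all others, and it fell in dPoflbC against dCA (log2 fold change -4.73, SE 0.24, adjusted p = 2.1e-07) and against dPoClrC (log2 fold change -4.55, SE 0.24, adjusted p = 3.57e-07). PDE_08036 stood at 243, 276 and 272 RPKM in dPoflbC libraries, 355, 399.8 and 467 RPKM in dPoClrC libraries and 401, 259 and 391 RPKM in dCA libraries. Its log2 fold changes were -0.98 (95% interval -1.31 to -0.64) in dPoflbC against dCA and -0.90 (95% interval -1.24 to -0.57) in dPoflbC against dPoClrC, both under the fold threshold. The first passed it without dPoflbC replicate 2 or 3 (-1.01 each) or dCA replicate 2 (-1.025), and the second without dPoClrC replicate 1 (-1.01). Neither was called in dPoClrC against dCA, with log2 fold changes of -0.17 for PDE_07334 and -0.07 for PDE_08036.

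Alpha-xylosidases act on the xylose side groups of xyloglucan-type chains rather than on xylan itself, and 2 matched the rule. PDE_03010 stood at 30.4, 30.4 and 31.1 RPKM in dPoflbC libraries, 136, 189 and 200.2 RPKM in dPoClrC libraries and 132, 51.0 and 108 RPKM in dCA libraries, with dPoflbC lowest and dCA replicate 2 lowest of the others. PDE_03010 fell in dPoflbC against dCA (log2 fold change -2.20, SE 0.24, adjusted p = 2.91e-05) and against dPoClrC (log2 fold change -2.80, SE 0.24, adjusted p = 8.12e-06). PDE_06944 stood at 77.4, 89.6 and 81.7 RPKM in dPoflbC libraries, 77.7, 105 and 114 RPKM in dPoClrC libraries and 107, 92.8 and 119 RPKM in dCA libraries and was called in no comparison. Its log2 fold change in dPoflbC against dCA was -0.94 (95% interval -1.29 to -0.60), and it passed the threshold without dCA replicate 1 (-1.01) or dPoflbC replicate 2 (-1.001).

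All 14 arabinofuranosidases, which remove arabinose side groups, were tested. In dPoflbC against dCA 10 fell and 1 rose, in dPoClrC against dCA 2 fell and 1 rose, and in dPoflbC against dPoClrC 10 fell and 1 rose. The most abundant was PDE_06067, at 122, 132 and 109 RPKM in dPoflbC libraries, 966, 1469 and 1316 RPKM in dPoClrC libraries and 756, 672 and 858 RPKM in dCA libraries. As deposited, no strain overlapped another, and dPoClrC was highest. PDE_06067 fell in dPoflbC against dCA (log2 fold change -3.24, SE 0.20, adjusted p = 7.36e-07) and against dPoClrC (log2 fold change -3.65, SE 0.21, adjusted p = 5.11e-07), and its log2 fold change in dPoClrC against dCA was 0.41 (95% interval -0.0018 to 0.82).

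PDE_00016 and PDE_07897 were high in dCA replicate 2. PDE_00016 stood at 29.3, 37.0 and 30.7 RPKM in dPoflbC libraries, 158, 329 and 359 RPKM in dPoClrC libraries and 301, 706 and 342 RPKM in dCA libraries. PDE_00016 fell in dPoflbC against dCA (log2 fold change -4.47, SE 0.49, adjusted p = 3.09e-05) and against dPoClrC (log2 fold change -3.41, SE 0.47, adjusted p = 0.00017). PDE_00016 in dPoClrC against dCA had a log2 fold change of -1.06 (95% interval -2.02 to -0.11) and an adjusted p of 0.074, and it was called without dCA replicate 1 (-1.35) and by DESeq2 (-1.03), as were PDE_00015 and PDE_09988. PDE_07897 stood at 27.1, 21.7 and 25.5 RPKM in dPoflbC libraries, 90.2, 133 and 175 RPKM in dPoClrC libraries and 159.9, 471 and 252 RPKM in dCA libraries. Its dPoflbC values lay below all others and its dPoClrC and dCA values overlapped. PDE_07897 fell in dPoflbC against dCA (log2 fold change -4.25, SE 0.49, adjusted p = 3.9e-05), in dPoflbC against dPoClrC (log2 fold change -2.70, SE 0.46, adjusted p = 0.000662) and in dPoClrC against dCA (log2 fold change -1.55, SE 0.43, adjusted p = 0.0182). The last call was lost without dCA replicate 2, where the log2 fold change was -0.81, and without dPoClrC replicate 1 (-1.32) or replicate 2 (-1.56), where the adjusted p passed 0.05.

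PDE_07585 separated all 3 strains, at 10.8, 6.43 and 6.47 RPKM in dPoflbC libraries, 19.1, 29.6 and 31.5 RPKM in dPoClrC libraries and 159, 88.1 and 111 RPKM in dCA libraries. PDE_07585 fell in dPoflbC against dCA (log2 fold change -4.48, SE 0.26, adjusted p = 5e-07), in dPoClrC against dCA (log2 fold change -2.44, SE 0.23, adjusted p = 6.86e-05) and in dPoflbC against dPoClrC (log2 fold change -2.04, SE 0.26, adjusted p = 1e-04). PDE_06546 was highest in dPoClrC, at 11.8, 11.6 and 10.9 RPKM in dPoflbC libraries, 41.7, 52.3 and 74.5 RPKM in dPoClrC libraries and 26.8, 12.5 and 26.2 RPKM in dCA libraries. It rose in dPoClrC against dCA (log2 fold change 1.09, SE 0.23, adjusted p = 0.00476), a call lost without dCA replicate 2 (0.91) and without dPoClrC replicate 3 (0.84). PDE_06546 fell in dPoflbC against dCA (log2 fold change -1.48), lost with no scaling (-0.93), and against dPoClrC (-2.57).

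PDE_00276 rose in dPoflbC at a very low level. It had 19, 22 and 20 reads in dPoflbC libraries, 4, 6 and 4 in dPoClrC libraries and 2, 1 and 3 in dCA libraries. The dPoflbC counts lay above all others, and only they let PDE_00276 through the filter on read counts that set which genes were tested. A rise in dPoflbC was thus favoured by that filter. The percent of the gene length covered by reads was 26.4%, 38.4% and 37.7% in dPoflbC libraries, 10.3%, 15.5% and 9.06% in dPoClrC libraries and 5.18%, 2.59% and 7.76% in dCA libraries. It rose in dPoflbC against dCA (log2 fold change 2.65, SE 0.36, adjusted p = 0.000111) and against dPoClrC (log2 fold change 1.72, SE 0.30, adjusted p = 0.000702). With limma on log2(RPKM + 5) these calls were lost (0.32 and 0.26), and with a pseudocount of 1 the second was lost (0.85). Its KEGG entry is alpha-N-arabinofuranosidase, as is that of PDE_06546 and of PDE_07080.

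Among the other 8 arabinofuranosidases, PDE_00015, PDE_07080, PDE_08972, PDE_09988 and PDE_09995 fell in dPoflbC against dCA, with log2 fold changes of -1.33 (PDE_07080) to -2.89 (PDE_00015). PDE_00015, PDE_08972, PDE_09811, PDE_09988 and PDE_09995 fell in dPoflbC against dPoClrC, with log2 fold changes of -1.19 (PDE_09988) to -2.03 (PDE_09995), and the call of PDE_09811 was lost with no scaling. The calls of PDE_07080 and PDE_09995 against dCA were lost with no scaling, that of PDE_07080 also without dCA replicate 2 and that of PDE_09995 without dCA replicate 3. The call of PDE_00015 against dPoClrC was lost without dPoClrC replicate 3, and that of PDE_09988 in 7 of the 9 fits that left out a library. PDE_01750 and PDE_06665 were called in no comparison. PDE_01750 had means of 67.0 ± 8.69 RPKM in dPoflbC, 34.6 ± 0.899 RPKM in dPoClrC and 47.0 ± 8.75 RPKM in dCA (SD, n = 3 each), with the dPoflbC libraries above all others as deposited, and log2 fold changes of -0.06 (95% interval -0.28 to 0.16) in dPoflbC against dCA and 0.67 (95% interval 0.45 to 0.90) in dPoflbC against dPoClrC. PDE_01750, PDE_06665, PDE_08972 and PDE_09995 carry a KEGG entry for arabinan endo-1,5-alpha-L-arabinosidase, an enzyme that acts on the arabinan chains of pectin.

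Alpha-glucuronidases release the glucuronic acid side groups of xylan, and 1 of 2 fell in dPoflbC against dCA and both against dPoClrC. PDE_03572 stood at 35.9, 36.1 and 23.3 RPKM in dPoflbC libraries, 74.0, 108 and 129.96 RPKM in dPoClrC libraries and 93.6, 58.7 and 88.0 RPKM in dCA libraries, with all dPoflbC values below the others. PDE_03572 fell in dPoflbC against dCA (log2 fold change -1.90, SE 0.23, adjusted p = 5.13e-05) and against dPoClrC (log2 fold change -1.99, SE 0.23, adjusted p = 4.84e-05), and its log2 fold change in dPoClrC against dCA was 0.09 (95% interval -0.39 to 0.58). PDE_07013, described as a bifunctional alpha-glucuronidase and N-acetyl beta-glucosaminidase, had means of 8.72 ± 1.66 RPKM in dPoflbC, 17.0 ± 1.87 RPKM in dPoClrC and 6.98 ± 2.61 RPKM in dCA (SD, n = 3 each). PDE_07013 fell in dPoflbC against dPoClrC (log2 fold change -1.23), lost with no scaling, and its log2 fold change in dPoClrC against dCA was 0.99 (95% interval 0.53 to 1.46), just under the threshold. It passed with RLE, upper-quartile or no scaling, with DESeq2, with a replicate block, and without dPoClrC replicate 2 or dCA replicate 3.

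Beta-glucuronidases cleave beta-linked glucuronic acid, a different linkage from that of the xylan side group, and 3 genes carry that description. In dPoflbC 1 rose and 1 fell against dCA, and 1 rose and 2 fell against dPoClrC. PDE_02801 stood at 96.0, 115 and 116 RPKM in dPoflbC libraries, 47.7, 39.6 and 39.1 RPKM in dPoClrC libraries and 34.7, 37.9 and 29.5 RPKM in dCA libraries. The dPoflbC values lay above all others. PDE_02801 rose in dPoflbC against dCA (log2 fold change 1.07, SE 0.18, adjusted p = 0.000463) and against dPoClrC (log2 fold change 1.09, SE 0.18, adjusted p = 0.000449), and the first call was lost without dCA replicate 1 (0.995) or replicate 3 (0.93). PDE_01949 had means of 2.31 ± 0.572 RPKM in dPoflbC, 7.91 ± 2.43 RPKM in dPoClrC and 4.47 ± 1.16 RPKM in dCA (SD, n = 3 each) and fell in dPoflbC against dCA (log2 fold change -1.51), lost with no scaling, and against dPoClrC (-2.05). PDE_07137 had 3, 0 and 5 reads in dPoflbC libraries, 15, 16 and 18 in dPoClrC libraries and 4, 1 and 9 in dCA libraries. Only its dPoClrC reads let it through the filter on read counts, which favoured a fall against dPoClrC. PDE_07137 fell in dPoflbC against dPoClrC (log2 fold change -2.91, SE 0.63, adjusted p = 0.00271), a call lost with limma on log2(RPKM + 5). As a class, their percent of all reads in genes was 0.0186%, 0.0222% and 0.0226% in dPoflbC libraries, 0.0101%, 0.00931% and 0.00911% in dPoClrC libraries and 0.00752%, 0.00773% and 0.00652% in dCA libraries, highest in dPoflbC, where PDE_02801 carried nearly all of it.

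Acetyl xylan esterases, which remove acetyl groups from the xylan backbone, fell in dPoflbC in all 3 cases against dCA and in all 3 against dPoClrC, and 2 of 3 fell in dPoClrC against dCA. PDE_04182 stood at 19.1, 21.9 and 24.1 RPKM in dPoflbC libraries, 2290.4, 7817 and 7123 RPKM in dPoClrC libraries and 4735, 2826 and 4998 RPKM in dCA libraries. It ranked 13 of 9786 genes by mean RPKM in dPoClrC, 24 in dCA and 5683 in dPoflbC. The dPoflbC values were far below all others, while dPoClrC replicate 1 was the lowest of the other 6. PDE_04182 fell in dPoflbC against dCA (log2 fold change -8.14, SE 0.53, adjusted p = 9.43e-07, 193-fold lower mean RPKM) and against dPoClrC (log2 fold change -8.33, SE 0.53, adjusted p = 1.06e-06, 264-fold). Its log2 fold change in dPoClrC against dCA was 0.19 (95% interval -0.67 to 1.04). Its KEGG entry names a hydrolase with no substrate, the same entry as that of PDE_02801.

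PDE_09278, whose KEGG entry is acetylxylan esterase, stood at 27.0, 29.4 and 35.5 RPKM in dPoflbC libraries, 318, 437 and 479 RPKM in dPoClrC libraries and 375, 843 and 814 RPKM in dCA libraries. PDE_09278 fell in dPoflbC against dCA (log2 fold change -5.10, SE 0.40, adjusted p = 3.27e-06) and against dPoClrC (log2 fold change -4.02, SE 0.38, adjusted p = 1.4e-05). Its fall in dPoClrC against dCA (log2 fold change -1.08, SE 0.34, adjusted p = 0.0311) was lost in 11 of 19 alternative settings. It was lost without dPoClrC replicate 1 (-0.91), 2 (-1.14) or 3 (-1.20) and without dCA replicate 2 (-0.71) or 3 (-1.02). The call was also lost with a replicate block (-0.997), with no scaling (-0.72) and in a fit of the 6 libraries compared (-1.08). Limma with pseudocounts of 1, 0.5 and 5 gave -0.65, -0.65 and -0.64, not called. Where the log2 fold change was still past -1, the call was lost by the adjusted p. PDE_01302 stood at 57.0, 62.0 and 80.0 RPKM in dPoflbC libraries, 123, 164 and 120.4 RPKM in dPoClrC libraries and 167, 284 and 302 RPKM in dCA libraries, with no overlap between strains. PDE_01302 fell in dPoflbC against dCA (log2 fold change -2.54, SE 0.29, adjusted p = 3.85e-05), in dPoflbC against dPoClrC (log2 fold change -1.31, SE 0.28, adjusted p = 0.00263) and in dPoClrC against dCA (log2 fold change -1.23, SE 0.28, adjusted p = 0.00707). The last of these calls was lost without dCA replicate 2 (-0.97) and with no scaling (-0.89).

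Feruloyl esterases cleave ferulic acid from arabinose side groups, and 2 of 2 fell in dPoflbC against dCA and 1 of 2 against dPoClrC. PDE_06649 stood at 19.4, 19.981 and 29.0 RPKM in dPoflbC libraries, 1189, 1985 and 2063 RPKM in dPoClrC libraries and 1844, 1145 and 1833 RPKM in dCA libraries. The dPoflbC values lay far below the others, and dPoClrC and dCA overlapped. PDE_06649 fell in dPoflbC against dCA (log2 fold change -6.70, SE 0.32, adjusted p = 1.53e-07, 70.5-fold lower mean RPKM) and against dPoClrC (log2 fold change -6.54, SE 0.32, adjusted p = 2.41e-07). PDE_08238 stood at 53.4, 53.0 and 45.5 RPKM in dPoflbC libraries, 43.2, 71.5 and 57.4 RPKM in dPoClrC libraries and 67.4, 68.4 and 69.0 RPKM in dCA libraries. PDE_08238 fell in dPoflbC against dCA (log2 fold change -1.03, SE 0.19, adjusted p = 0.000827), close to the threshold, and the call was lost with RLE scaling, DESeq2's size factors in edgeR (-0.98), with DESeq2 itself (-0.98), with upper-quartile scaling (-0.81), with no scaling (-0.43), in a fit of the 6 libraries compared (-0.99), without dPoflbC replicate 3 (-0.97) and without dCA replicate 2 (-0.87).

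XlnR (PDE_07674), the activator of xylanase and cellulase genes in filamentous ascomycetes, was itself a transcript of modest level. It stood at 20.6, 18.4 and 19.5 RPKM in dPoflbC libraries, 37.9, 30.6 and 36.7 RPKM in dPoClrC libraries and 35.9, 35.8 and 44.6 RPKM in dCA libraries. The dPoflbC values lay below all others, and those of dPoClrC and dCA overlapped. XlnR (PDE_07674) fell in dPoflbC against dCA (log2 fold change -1.58, SE 0.13, adjusted p = 3.55e-06) and against dPoClrC (log2 fold change -1.12, SE 0.13, adjusted p = 4.24e-05). With no scaling these log2 fold changes were -0.99 and -0.85 and neither was called, and with upper-quartile scaling the second was -0.97 and not called. In dPoClrC against dCA the log2 fold change was -0.46 (95% interval -0.74 to -0.19).

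Xylose released from xylan enters metabolism through D-xylose reductase, D-xylulose reductase and xylulokinase, and 1 gene for each was found by its KEGG entry. The D-xylose reductase gene PDE_02929 stood at 887, 1066 and 712 RPKM in dPoflbC libraries, 1444, 1914 and 2401 RPKM in dPoClrC libraries and 1689, 806 and 1617 RPKM in dCA libraries. Its dPoflbC values overlapped those of dCA, where replicate 2 was lowest. PDE_02929 fell in dPoflbC against dCA (log2 fold change -1.17, SE 0.25, adjusted p = 0.00256) and against dPoClrC (-1.39, SE 0.26, adjusted p = 0.00105), and the first call was lost with upper-quartile scaling (-0.96) and with no scaling (-0.63). The D-xylulose reductase gene PDE_05826 averaged 345 ± 51.0 RPKM in dPoflbC, 346 ± 99.4 RPKM in dPoClrC and 329 ± 7.33 RPKM in dCA (SD, n = 3 each), and the xylulokinase gene PDE_09158 92.1 ± 14.0 RPKM in dPoflbC, 112 ± 17.2 RPKM in dPoClrC and 69.2 ± 24.4 RPKM in dCA (SD, n = 3 each). Neither was called in any comparison.

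The comparison list of cellulases held 18 genes described as endoglucanase, cellobiohydrolase or cellulose monooxygenase, the xyloglucan-specific endoglucanases PDE_02886 and PDE_06439 among them. Of these 13 fell and 2 rose in dPoflbC against dCA (median log2 fold change -3.22), PDE_06439 among those that fell and PDE_02886 among those that rose. There were 8 that fell and 1 that rose in dPoClrC against dCA (median -0.81), and 10 that fell in dPoflbC against dPoClrC (median -1.71). Of all tested genes 15.8%, 7.35% and 13.6% fell in these comparisons in order, and 11.4%, 5.69% and 9.05% rose. The cellulases that rose, 11.1% in dPoflbC against dCA and 5.56% in dPoClrC against dCA, were near those shares. The read total of the xylan-degrading genes over that of the cellulases was 2.44, 2.51 and 2.00 in dPoflbC libraries, 6.26, 8.99 and 8.93 in dPoClrC libraries and 5.48, 2.54 and 4.37 in dCA libraries. This within-library ratio was higher in all dPoClrC libraries than in all others, and dCA replicate 2 lay close to the dPoflbC values. Both totals include abundant single genes, such as PDE_04478 among the xylan-degrading genes. The cellulase PDE_07945 stood at 233, 326 and 422 RPKM in dPoflbC libraries and 91.0, 143 and 133 RPKM in dPoClrC libraries. In dCA libraries it stood at 558, 2935 and 982 RPKM. The ratio without these genes was not computed.

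Replicates of a strain also differed. After scaling, dPoClrC replicate 1 was below both other dPoClrC libraries in 37 of the 43 tested genes, where 36.4% of all tested genes were, and above both in 2. It was lowest by the widest margin in PDE_09478, PDE_04182 and PDE_04478. PDE_09478 had only 1 read there, against 7 and 6 in the other dPoClrC libraries. The part of dPoClrC replicate 1 in the comparisons is given by the fit without it. There 34, 8 and 36 of the xylan-degrading genes were called in dPoflbC against dCA, dPoClrC against dCA and dPoflbC against dPoClrC. Of all tested genes 2395, 1144 and 2052 were called in that fit, in place of 2356, 1132 and 1965. In dCA replicate 2, 17 of the 43 were above and 21 below both other dCA libraries, beside 40.1% and 42.9% of all tested genes. PDE_09478, PDE_07897, PDE_00015, PDE_00016 and PDE_09988 were more than 2-fold above the mean of the other dCA libraries there. PDE_00276 and PDE_07137 were more than 2-fold below it. Of all tested genes 3.74% were that far above and 4.46% that far below. The 2 low values were 1 read each, against 2 and 3 reads for PDE_00276 and 4 and 9 for PDE_07137.

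**Figure D4:**
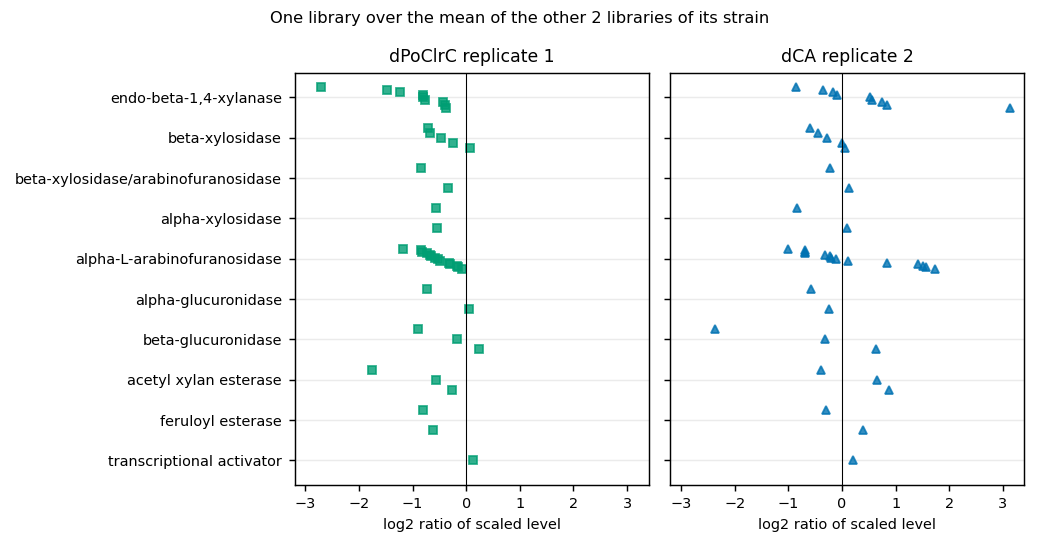
Log2 ratio of the scaled level in dPoClrC replicate 1 (left) and dCA replicate 2 (right) to the mean of the other 2 libraries of the same strain, with 1 point per tested gene, by enzyme class. Most points lie left of 0 for dPoClrC replicate 1, and points lie on both sides of 0 for dCA replicate 2.

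Some of the genes carry consecutive locus numbers, 7 genes in 3 runs. These are PDE_00014 to PDE_00016, PDE_03572 with PDE_03573, and PDE_08036 with PDE_08037. Numbers next to each other were read from the identifiers, and positions were not used. The endoxylanase PDE_03573 over the alpha-glucuronidase PDE_03572 was 7.71, 9.30 and 9.36 in dPoflbC libraries, 6.93, 5.22 and 5.99 in dPoClrC libraries and 6.73, 7.51 and 7.55 in dCA libraries as a ratio of RPKM, and the dPoflbC ratios lay above all others, by a small margin. The bifunctional PDE_08036 over the beta-xylosidase PDE_08037 was 10.2, 9.94 and 9.36 in dPoflbC libraries, 1.41, 1.07 and 1.15 in dPoClrC libraries and 1.67, 2.04 and 1.82 in dCA libraries, and here too the dPoflbC ratios lay above all others. In the run from PDE_00014, the endoxylanase PDE_00014 had 5, 2 and 10 reads in dPoflbC libraries, 2, 2 and 5 in dPoClrC libraries and 1, 1 and 1 in dCA libraries, while PDE_00016 was the highest of the run in every library.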

How the data were processed

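RNA was measured in 9 libraries, 3 per strain, which the labels call biological triplicates; p-values measure the spread between these samples only. The submitters' processing notes name CASAVA 1.8, and build, gene models, aligner and read counter were not given in the sources used here. Values are as deposited. The authors deposited whole read counts per gene, which the headers call unique reads, and each header total equals its column sum. The deposited RPKM equals those reads per kilobase and per 1e+06 reads in genes. The deposited coverage, in percent of gene length, is quoted only for PDE_00276. Nearly all lengths (99.97%) are multiples of 3, so they are coding lengths.

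Column codes were matched to those in the samples' description labels. Genes passing filterByExpr (8681 of 9786) were fitted with edgeR 4.0.16 (R 4.3.3; TMM, glmQLFit and glmQLFTest, two-sided) on all 9 libraries with 1 mean per strain, and p-values were adjusted by Benjamini-Hochberg within each comparison. SEs are the log2 fold change divided by the root of the F statistic. The procedure was tested on simulated data. Depth was 6.49 to 7.76 M reads per library, and a count of 0 allows up to 3 reads. Alternatives were RLE, upper-quartile and no scaling, no low-count filter, DESeq2 1.42.0, limma 3.58.1 on log2(RPKM + pseudocount), fits of 6 libraries, a replicate block, no fold threshold, and each library left out.

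The genes and lists were chosen with earlier results of these data known. Values in every library are given for genes with a mean of 50 RPKM or more, the highest of each class, those called with a log2 fold change of 4 or more in size, and those called against the direction of most. Locus numbers in the reference table matched 0 of the identifiers, so sequences and positions were not used.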

Additional observations from a re-analysis of the deposited data

How the results depend on the processing

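Over the alternatives, 1823 log2 fold changes of the genes given library by library were recomputed. Of these, 1722 kept their side of the threshold, 82 lost the call and 19 gained it. A called value changed sign in 0 of them, and 62 values that were called under neither setting did. The median over the xylan-degrading genes tested in each fit, in dPoflbC against dCA, was -1.54 with upper-quartile scaling, -1.19 with no scaling, -1.62 with no low-count filter (45 genes in place of 43), -1.06 with limma and a pseudocount of 1 or of 0.5, -0.83 with a pseudocount of 5, and -2.04 to -1.62 with 1 library left out. In dPoClrC against dCA it was 0.22 with no scaling, 0.23 with limma and a pseudocount of 1 or 0.5, 0.13 with 5, and -0.23 (without dPoClrC replicate 3) to 0.069 (without dPoClrC replicate 1), so its sign changed with these settings. In dPoflbC against dPoClrC it was -1.67 with upper-quartile scaling, -1.54 with no scaling, -1.24, -1.37 and -0.90 with limma and pseudocounts of 1, 0.5 and 5, and -1.95 to -1.71 with 1 library left out. No scaling moved the median of all tested genes to 0.51, 0.30 and 0.29 in the 3 comparisons, and limma's RPKM scale is also unscaled. With it, in dPoflbC against dCA 2272 genes rose and 757 fell, in place of 988 and 1368 (1301 and 1079 with upper-quartile scaling), 887 rose and 454 fell in dPoClrC against dCA, in place of 494 and 638, and 1289 rose and 876 fell in dPoflbC against dPoClrC, in place of 786 and 1179 (1018 and 994 with upper-quartile scaling). Without the fold threshold 5288, 3280 and 4954 genes passed. With 1 library left out 2241 to 2506, 923 to 1339 and 1890 to 2052 of all tested genes were called, and by DESeq2 2314, 1119 and 1962. Limma with pseudocounts of 1, 0.5 and 5 called 2765, 2929 and 2027 genes in dPoflbC against dCA. With 5 it called 1448 in dPoflbC against dPoClrC. For the xylan-degrading genes in dPoClrC against dCA, 9 were called, against 14 by DESeq2, 17 without the fold threshold, 11 with no scaling (7 rose and 4 fell) and 5 to 12 with 1 library left out, the lowest without dCA replicate 2. In dPoflbC against dCA 32 were called, against 25 with no scaling, 24 with limma and a pseudocount of 1 or 0.5, 22 with 5, and 31 to 35 with 1 library left out, and in dPoflbC against dPoClrC 33 to 37, and 21 with limma and a pseudocount of 5. Except for the construction of these settings, the cause of the shifts was not tested. Depth limits PDE_00014, PDE_02413, PDE_07137 and PDE_00276, with 22 reads or fewer in every library.

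Replicate numbers were not treated as pairs. Same-numbered libraries had correlations of their deviations of -0.18 to 0.12 in the 3 comparisons. In dPoflbC against dPoClrC they were 0.11, 0.098 and 0.067, each above those of differently numbered libraries (-0.080 to 0.0019). In neither other comparison were all same-numbered values the highest. With 3 libraries per strain this check cannot decide whether the numbers pair the samples. With a replicate block 32, 9 and 35 of the genes were called in dPoflbC against dCA, dPoClrC against dCA and dPoflbC against dPoClrC. Of all tested genes 2332, 1096 and 1966 were called in that fit. Of the 9 xylan-degrading genes, 8 were shared with the fit without the block. PDE_09278 was lost and PDE_07013 gained.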

Other observations

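The genes PDE_08770 and PDE_09178 have a KEGG entry for feruloyl esterase but no matching description, and so were outside the set; they were picked out after their values were seen. PDE_08770 stood at 14.1, 11.1 and 17.4 RPKM in dPoflbC libraries, 23.2, 27.1 and 32.7 RPKM in dPoClrC libraries and 22.0, 10.003 and 16.9 RPKM in dCA libraries, and it fell in dPoflbC against dPoClrC (edgeR log2 fold change -1.24, SE 0.22, adjusted p = 0.00084). PDE_09178 stood at 8.54, 8.81 and 7.81 RPKM in dPoflbC libraries, 11.9, 15.8 and 17.8 RPKM in dPoClrC libraries and 16.0, 11.3 and 16.3 RPKM in dCA libraries, and it fell in dPoflbC against dCA (-1.37, SE 0.16, adjusted p = 4.78e-05) and against dPoClrC (-1.13, SE 0.16, adjusted p = 0.000201). In dPoClrC against dCA the log2 fold changes were 0.49 for PDE_08770 and -0.23 for PDE_09178, neither called. With no scaling all 3 of these falls missed the fold threshold, at -0.97 for PDE_08770 and at -0.79 against dCA and -0.85 against dPoClrC for PDE_09178, and with upper-quartile scaling PDE_09178 against dPoClrC did too, at -0.98.

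The untested beta-xylosidase PDE_02413 had 11, 18 and 9 reads in dPoflbC libraries, 1, 5 and 3 in dPoClrC libraries and 3, 0 and 1 in dCA libraries, so all dPoflbC counts lay above the others. With no low-count filter it was called in dPoflbC against dCA and against dPoClrC by edgeR.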
